A study of Homo sapiens with 6 samples.

Results

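Natural killer cells carry receptors that read ligands on the surface of other cells. The 10 genes described here encode such ligands or, in the case of ICOSLG, a relative of them: MICA, MICB, ULBP1, ULBP2 and ULBP3, which bind the activating receptor NKG2D, PVR and NECTIN2, which bind the activating receptor CD226 and the inhibitory receptor TIGIT, NCR3LG1 (B7-H6), which binds the activating receptor NKp30, CD48, which binds 2B4 (CD244), and ICOSLG, the ligand of the costimulatory receptor ICOS. The members were chosen by gene name, among 62252 genes to which the deposited transcripts were matched, and their 56 annotated transcripts were all present. Of the 10 genes, 9 had enough counts to be tested, among 26074 genes tested in all, and CD48 was the exception.

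mRNA was measured in K562, an erythroid leukemia cell line that is widely used as a target of natural killer cells. The Chelator group consisted of 3 libraries from cells treated overnight with 10 µM 21H7, a cell-permeable iron chelator, and the DMSO group of 3 libraries from cells that received an equal volume of the solvent DMSO. Polyadenylated RNA was sequenced as paired reads, and all 6 libraries came from the same line in culture without any natural killer cells or other partner cells. The levels below are therefore those of the target cells' transcripts, and neither protein on the cell surface nor killing was measured.

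As background, NKG2D ligands are distant relatives of MHC class I molecules that most healthy cells hold at low levels and that appear after DNA damage, heat shock, viral infection or transformation. Engagement of NKG2D, CD226 or NKp30 favours killing of the target cell, whereas MHC class I engages inhibitory receptors. K562 cells are known for very low MHC class I levels.

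The libraries held between 78.6 and 101 M assigned read pairs. DMSO replicate 2 stood apart from the other 2 DMSO libraries, with a chi-square per gene of 63.5 and 44.3 against them, compared with 8.52 between those 2. Chelator replicate 1 likewise stood apart from the other 2 Chelator libraries, at 29.9 and 28.1 compared with 6.54. When either library was left out, PVR was the one ligand of the 9 tested that moved across an adjusted p of 0.05, and the largest shifts in log2 fold change were in ULBP2, from 1.50 to 1.24 without DMSO replicate 2, and in ULBP3, from 0.027 to 0.24 without Chelator replicate 1. The mean fragment length estimated from the files was 252 to 264 bases for DMSO and 201 to 218 bases for Chelator, without overlap, and this difference cannot be told apart from the treatment. Markers of erythroid K562 cells were present, with all 7 listed genes above 1 TPM and a summed level of 11620 to 12892 TPM in DMSO and 16336 to 17456 TPM in Chelator. Most of this sum was globin mRNA (HBG1, HBG2 and HBE1), of which HBG1 (log2 fold change 0.24, adjusted p = 0.0114), HBG2 (0.37, adjusted p = 6.03e-05) and HBE1 (0.76, adjusted p = 2.50e-17) passed as higher. HBG1 no longer passed in 5 alternatives besides the test against a fold threshold, among them centring on the mean change (0.13, adjusted p = 0.266), omission of DMSO replicate 2 (0.18, adjusted p = 0.0609) and omission of Chelator replicate 1 (0.19, adjusted p = 0.0546). By contrast, the erythroid transcription factor genes KLF1 (log2 fold change -0.72, adjusted p = 4.59e-23) and TAL1 (-0.28, adjusted p = 0.000384, and 0.0938 with limma) passed as lower. TPM (transcripts per M) corrects for transcript length and depth. Of 12 natural killer and T cell markers, 4 reached 1 TPM in any library and KLRC1 was at 0 in all 6. Their sum was 15.1 to 21.3 TPM in DMSO and 50.7 to 52.1 TPM in Chelator, most of it CD3D, a chain of the T cell receptor complex. Of the 12, 5 passed the test as higher, beside 19.5% of all genes, and were CD3D, CD3E, PRF1, NCR1 and NCR3. NCR3, the gene of the receptor NKp30, had 16, 4 and 8 counts in DMSO and 112, 162 and 150 in Chelator (log2 fold change 3.55, adjusted p = 1.41e-11). NCR1 had a log2 fold change of 1.33 (adjusted p = 0.000602). Of 6 B cell and monocyte markers 2 reached 1 TPM, MS4A1 was at 0, and the sum was 13.4 to 13.7 TPM in DMSO and 19.9 to 23.0 TPM in Chelator. The part of these shifts in the results below was not tested.

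Iron chelation was accompanied by higher mRNA levels of ULBP1, ICOSLG and ULBP2, smaller increases of MICA, MICB and NECTIN2, and a decrease of NCR3LG1. Of the 9 tested genes, 6 passed an adjusted p under 0.05 as higher in Chelator (DESeq2, Wald test, Benjamini-Hochberg over all genes), compared with 19.5% of the 24542 genes that received an adjusted p. NCR3LG1 was the 1 gene that passed as lower, compared with 18.3% of all genes. NECTIN2 no longer passed, and PVR passed as lower, with centring on the mean change or with trends of GC content and length removed. With the additional requirement of an absolute log2 fold change above 1, ULBP1, ULBP2 and ICOSLG were called higher, 3 of 9, where 8.18% of all genes were. No ligand was called lower by DESeq2, edgeR or limma, where 2.6% of all genes were by DESeq2, although NCR3LG1 and PVR were lower at an unadjusted p under 0.05. Normalized counts of the 2 groups did not overlap for 8 of the 9 genes, and for 47.3% of all genes. Across the 9 genes the log2 fold change had a median of 0.35, compared with 0.024 over all genes tested. The choice of members was made with earlier results of these data known, so the shares over all genes are given as description only.

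**Figure D1:**
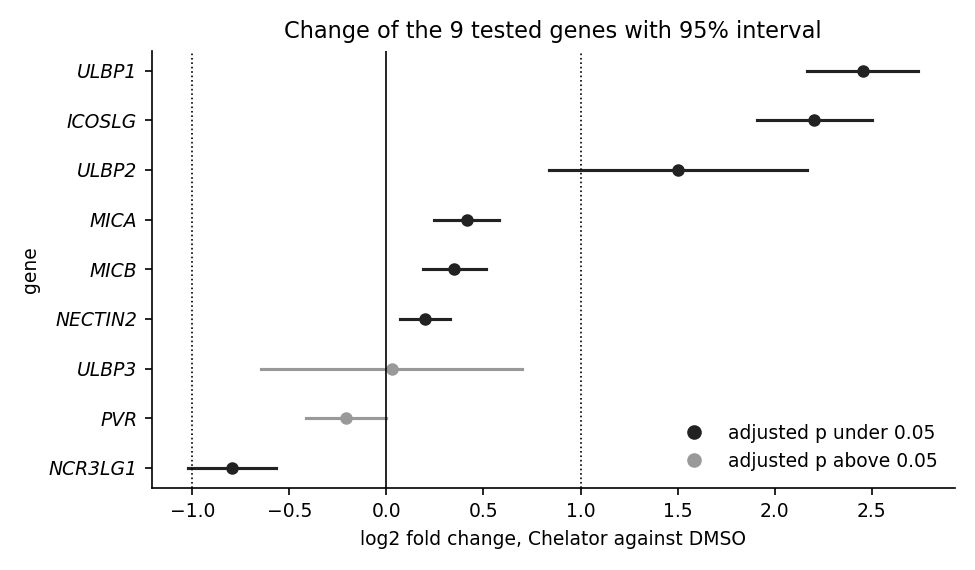
Log2 fold change of each tested gene, Chelator against DMSO, with points for the estimate and bars for its 95% interval (n = 3 libraries per group). Dotted lines mark an absolute log2 fold change of 1, and the intervals of ULBP1 and ICOSLG lie wholly above 1, while that of ULBP2 runs from 0.84 to 2.16.

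ULBP1, ULBP2 and ULBP3 lie on the long arm of chromosome 6 in 1 cluster, and ULBP1 and ULBP2 are annotated with 1 transcript each. They encode proteins with MHC-like domains that, unlike MICA and MICB, are held in the membrane by a glycolipid anchor. Since ULBP1 and ULBP2 were both called and ULBP3 was not, the 250 bases before the start of each gene are shown together (RefSeq, GRCh38.p14, each 5′ to 3′ on the gene's own strand). Capitals mark ACGTG or GCGTG on either strand, the core of the hypoxia response element, and in ULBP1 also GCGNGGGCG, the EGR motif. No annotated exon of GENCODE release 44 lies in these windows, which are chr6:149963693-149963942 (+ strand) for ULBP1, chr6:149941764-149942013 (+ strand) for ULBP2 and chr6:150069122-150069371 (- strand) for ULBP3.
ULBP1: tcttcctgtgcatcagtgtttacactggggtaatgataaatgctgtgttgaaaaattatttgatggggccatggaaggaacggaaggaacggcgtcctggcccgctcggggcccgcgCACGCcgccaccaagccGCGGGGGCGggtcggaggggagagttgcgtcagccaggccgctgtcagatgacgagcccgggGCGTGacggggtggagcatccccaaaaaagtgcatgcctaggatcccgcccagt
ULBP2: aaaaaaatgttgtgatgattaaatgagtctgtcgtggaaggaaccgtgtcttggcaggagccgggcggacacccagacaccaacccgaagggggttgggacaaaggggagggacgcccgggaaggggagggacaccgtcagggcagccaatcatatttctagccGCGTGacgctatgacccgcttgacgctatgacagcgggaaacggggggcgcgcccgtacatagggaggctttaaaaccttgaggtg
ULBP3: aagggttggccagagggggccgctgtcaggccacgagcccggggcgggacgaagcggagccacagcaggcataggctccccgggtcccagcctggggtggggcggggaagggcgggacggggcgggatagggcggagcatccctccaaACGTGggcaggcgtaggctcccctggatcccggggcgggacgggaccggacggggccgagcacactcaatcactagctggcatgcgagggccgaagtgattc

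In windows of 300 bases, from 250 before to 50 bases after the start, the hypoxia core was found 2 times in ULBP1, at -133 and -54 (first base of the match relative to the start at 0), 1 time in ULBP2, at -86, and 1 time in ULBP3, at -102. The core is common, and 48.4% of the 35116 promoters searched hold it. The EGR motif of ULBP1, at -116, overlaps an SP1 motif (GGGCGG, in 45.0% of promoters) at -112 and is present in 9.43% of promoters. ULBP2 held the composite ATF4 motif TGATGNAA at +20, which 3.62% of promoters hold, and ULBP2 and ULBP3 each held the AP-1 motif TGANTCA at -2 and -6, respectively, as did 7.71% of all. ULBP3 held the SP1 motif 6 times. These matches describe the letters in the windows, and binding was not measured.

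ULBP1 (ENSG00000111981, chr6:149963943-149973715, + strand) had a log2 fold change above that of ICOSLG, the next ligand, but their 95% intervals overlapped, and the order turned without the length offset (2.44 for ULBP1, 2.70 for ICOSLG) and with a near copy of ICOSLG added (2.54 for ICOSLG). Its estimated counts were 213, 185 and 142 in DMSO replicates 1 to 3 and 1226, 1225 and 979 in Chelator replicates 1 to 3. The lowest Chelator library was thus far above the highest DMSO library. In TPM the level was 0.92 ± 0.13 (SD, n = 3) in DMSO and 5.14 ± 0.28 in Chelator, and the log2 fold change was 2.45 ± 0.15 (SE, adjusted p = 1.47e-61), a 5.48-fold increase with a 95% interval of 4.50 to 6.68. Leaving out any 1 library gave log2 fold changes between 2.37 and 2.55. On the log2(TPM + 1) scale used with limma, which narrows changes of genes at few TPM, the difference was 1.68. Of the 31-base words of ULBP1, 18.9% also occur in transcripts of other genes, foremost the pseudogene RAET1K and ULBP3.

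ULBP2 (ENSG00000131015, chr6:149942014-149949235, + strand) was also increased, from fewer counts. Its counts were 60, 27 and 39 in DMSO and 142, 155 and 126 in Chelator. The groups did not overlap, and the 3 Chelator libraries lay close together while the DMSO libraries were more widely spread. The level was 0.55 ± 0.16 TPM in DMSO and 1.62 ± 0.03 TPM in Chelator, with a log2 fold change of 1.50 ± 0.34 (SE, adjusted p = 5.24e-05), or 2.83-fold with a 95% interval of 1.78 to 4.48. DMSO replicate 2 held the lowest count, and without it the log2 fold change was 1.24 with an adjusted p of 0.000354. The increase did not pass a test against an absolute log2 fold change of 1 (adjusted p = 1.00). On the log2(TPM + 1) scale used with limma, where a gene at this level can show little change, the difference was 0.76 (adjusted p = 0.00318). ULBP2 shares 44.7% of its 31-base words with other genes, mainly RAET1L, whose counts were between 0 and 1 in every library.

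ULBP3 (ENSG00000131019, chr6:150061053-150069121, - strand) showed no difference that was detectable at this depth. Its counts were 65, 80 and 73 in DMSO and 59, 97 and 104 in Chelator. The ranges overlapped, with the lowest and the highest library both in the Chelator group. The log2 fold change was 0.027 ± 0.34 (SE, adjusted p = 0.966), and its 95% interval of -0.65 to 0.70 in log2 units leaves room for a change of 0.639 to 1.62-fold. The sign of this small difference turned in 4 of the alternatives, as it was -0.076 with centring on the mean change, -0.0090 with the replicate number as a block, -0.084 without DMSO replicate 1 and -0.21 without Chelator replicate 3. Among fits with 1 library left out the highest value was 0.24 (adjusted p = 0.666), without Chelator replicate 1. Of the 31-base words of ULBP3, 21.7% also occur in transcripts of other genes, foremost ULBP1. How far the division of shared reads affected the counts of ULBP3 was not tested.

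**Figure D2:**
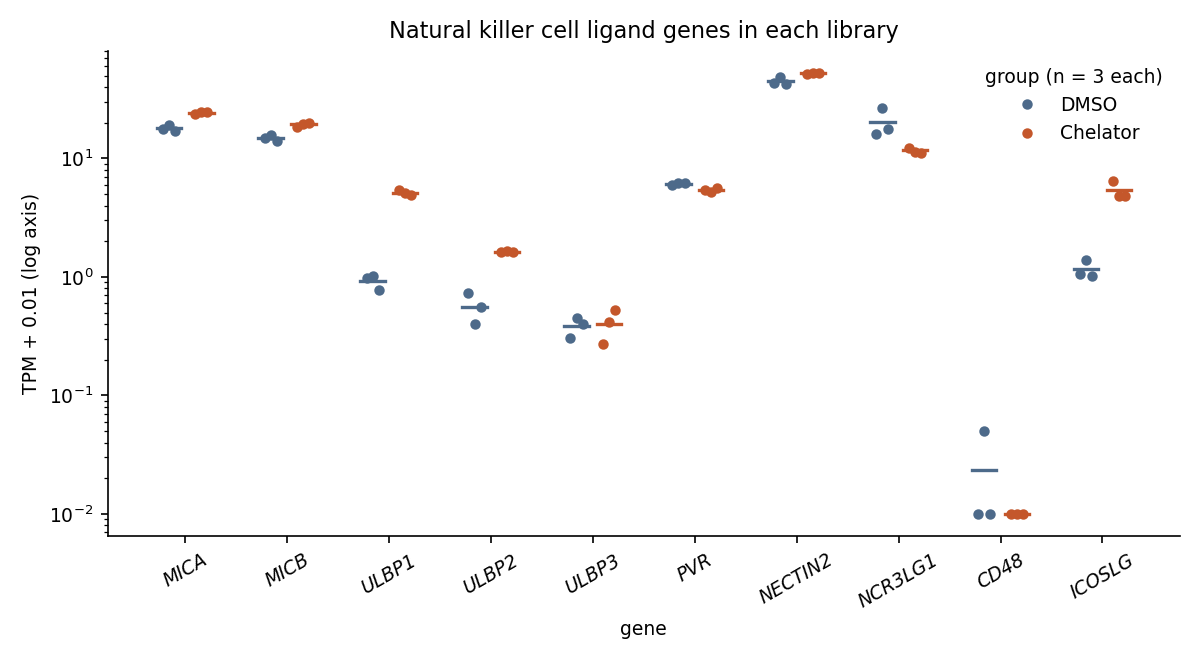
TPM plus 0.01 of each of the 10 genes in every library on a log axis, with points for libraries and lines for group means (blue, DMSO, orange, Chelator, n = 3 each). ULBP1, ULBP2 and ICOSLG in Chelator lie above their DMSO libraries, NCR3LG1 lies below, and CD48 is at or near 0 TPM in all 6 libraries.

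MICA and MICB encode transmembrane NKG2D ligands and lie near each other in the MHC region of chromosome 6. Both showed increases that were smaller than those of ULBP1 and ULBP2. MICA (ENSG00000204520, chr6:31399784-31415315, + strand) had 1680, 1554 and 1407 counts in DMSO and 2391, 2593 and 2307 counts in Chelator. Every Chelator library lay above every DMSO library. Its level rose from 17.9 ± 0.95 to 24.4 ± 0.44 TPM (SD, n = 3), and the log2 fold change was 0.41 ± 0.09 (SE, adjusted p = 8.91e-06), or 1.33-fold with a 95% interval of 1.18 to 1.50. MICB (ENSG00000204516, chr6:31494881-31511124, + strand) had 2379, 2105 and 1888 counts in DMSO and 2945, 3413 and 2880 in Chelator, again without overlap. Its level rose from 14.9 ± 0.94 to 19.3 ± 0.78 TPM, with a log2 fold change of 0.35 ± 0.08 (SE, adjusted p = 0.000106), or 1.27-fold with a 95% interval of 1.14 to 1.42. Both kept an adjusted p under 0.05 in each of the fits with 1 library left out, where MICA lay between 0.37 and 0.44 and MICB between 0.31 and 0.39.

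MICA and MICB share sequence, with 209 common 31-base words, and 9.21% of the words of MICA and 14.2% of those of MICB occur in some other gene, so the division of reads between them carries an error that the counts do not show. Their promoter windows both held the hypoxia core 2 times. Both also held the heat shock element GAANNTTC, at -135 in MICA and -139 in MICB, which 6.77% of all promoters hold. The same element was found in ICOSLG at -160 and in CD48 at -208, and the hypoxia core also in NCR3LG1 at -49 and in ICOSLG at -177. Exons of annotated transcripts reach into these windows, and their sequences are not shown.

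Added over the 5 NKG2D ligands, the level was 34.4, 36.7 and 32.9 TPM in DMSO and 49.6, 51.6 and 51.5 TPM in Chelator. The groups did not overlap. MICA and MICB supplied most of this sum in both groups, and ULBP1 reached 5.14 TPM. In bulk RNA a change of this kind in every cell and a larger change in some of the cells cannot be told apart, nor can fewer cells with a transcript from less RNA per cell.

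PVR (CD155) and NECTIN2 (CD112), adhesion molecules of the nectin family that bind CD226 and TIGIT, lie near each other on chromosome 19. NECTIN2 (ENSG00000130202, chr19:44846175-44889223, + strand) was the most abundant of the 10 genes. It had 8164, 7480 and 7120 counts in DMSO and 10154, 11235 and 9781 in Chelator, and its level was 44.7 ± 3.03 TPM in DMSO and 52.4 ± 0.60 TPM in Chelator. The libraries did not overlap, though the difference was small, with a log2 fold change of 0.20 ± 0.07 (SE, adjusted p = 0.00799), or 1.15-fold with a 95% interval of 1.05 to 1.26. This increase depended on the scaling, since it was 0.096 (adjusted p = 0.376) with centring on the mean change and -0.050 (adjusted p = 0.550) after correction for GC content and length.

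PVR (ENSG00000073008, chr19:44643798-44666162, + strand) had 1386, 1371 and 1346 counts in DMSO and 1460, 1456 and 1371 in Chelator. In TPM it was 5.96, 6.20 and 6.15 in DMSO and 5.40, 5.15 and 5.63 in Chelator, so that raw counts were slightly higher and levels per length and depth slightly lower after chelation. The log2 fold change was -0.21 ± 0.11 (SE), and its adjusted p of 0.106 did not pass. It passed under 3 of the alternatives, with centring on the mean change (-0.31, adjusted p = 0.0202), with trends of GC content and length removed (-0.31, adjusted p = 0.00569) and without DMSO replicate 2 (-0.28, adjusted p = 0.0201). Of the 31-base words of PVR 21.9% occur in other genes, most of them in ENSG00000279095, which had 0 counts in both groups, and CEACAM19, which also overlaps PVR, averaged 12 counts in DMSO and 15.2 in Chelator. PVR held neither the hypoxia core, which CD48 also lacked, nor any other of the 8 motifs searched, whereas the promoter of NECTIN2 held the hypoxia core 3 times and the cyclic AMP response element TGACGTCA at +1, which 1.85% of promoters hold.

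NCR3LG1, a B7-family protein better known as B7-H6, was the 1 ligand with a decrease that passed the test. NCR3LG1 (ENSG00000188211, chr11:17351800-17377341, + strand) had 7684, 10512 and 7008 counts in DMSO and 6094, 5985 and 4978 in Chelator. In TPM the DMSO libraries were at 16.1, 26.5 and 17.7 and the Chelator libraries at 12.4, 11.4 and 11.2. The groups did not overlap, and DMSO replicate 2 was well above the other DMSO libraries. The log2 fold change was -0.79 ± 0.12 (SE, adjusted p = 6.08e-11), a ratio of 0.576 with a 95% interval of 0.493 to 0.674. Without DMSO replicate 2 it was -0.65 (adjusted p = 6.64e-12), so the decrease was smaller and still passed. KCNJ11, a potassium channel gene that overlaps NCR3LG1 on the opposite strand, averaged 727 counts in DMSO and 528 in Chelator with a log2 fold change of -0.67, and whether reads were assigned by strand was not stated. How far reads of the overlapping stretch were divided correctly was not tested. The other NKp30 ligand listed, BAG6, a chaperone that can be released from cells, was at 298 to 333 TPM in DMSO and 330 to 356 TPM in Chelator and did not pass (log2 fold change 0.11, adjusted p = 0.246).

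CD48 (ENSG00000117091, chr1:160678746-160711831, - strand), the glycolipid-anchored ligand of 2B4, was not detectable at this depth. It had 3 counts in DMSO replicate 2 and 0 in the other 5 libraries. A count of 0 allows up to 3 counts in a library of 78.6 to 101 M, counting error only, so no fold change was computed.

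Ranked by TPM in DMSO, NECTIN2 was followed by NCR3LG1, MICA, MICB, PVR, ICOSLG, ULBP1, ULBP2, ULBP3 and CD48. In this order the ranges of NCR3LG1 and MICA overlapped, as did those of ICOSLG and ULBP1 and of ULBP2 and ULBP3. In Chelator, MICA (24.4 TPM) and MICB (19.3 TPM) stood above NCR3LG1 (11.7 ± 0.61 TPM) with no overlap. PVR (5.40 TPM), ICOSLG (5.36 TPM) and ULBP1 (5.14 TPM) could not be ordered within their spread, whereas PVR stood above the other 2 in DMSO with no overlap. ULBP2 was separated from ULBP3 in Chelator.

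ICOSLG, the ligand of ICOS on activated T cells and some innate lymphocytes, combined an increase with a change of transcript. ICOSLG (ENSG00000160223, chr21:44215382-44241446, - strand) had 336, 376 and 292 counts in DMSO and 3015, 2509 and 2138 in Chelator. The groups were widely separated. Its level rose from 1.15 ± 0.20 to 5.36 ± 0.98 TPM (SD, n = 3), and the log2 fold change was 2.20 ± 0.15 (SE, adjusted p = 1.86e-46), or 4.61-fold with a 95% interval of 3.75 to 5.65. This value takes into account that the average length of its transcripts rose from 4054 to 5793 bases, and without that correction the log2 fold change was 2.70. On the log2(TPM + 1) scale used with limma the difference was 1.56. Chelator replicate 1 held the highest normalized count, 2467 compared with 1725 and 1764, and without it the log2 fold change was 2.02 (adjusted p = 4.38e-56).

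Of the 17 annotated ICOSLG transcripts, 9 had at least 10 counts in 3 libraries. In DMSO the main product was ICOSLG-209, a retained-intron transcript that begins within exon 3, at position 44237101 of chromosome 21, and keeps intron 3 (chr21:44235563-44236866, 1304 bases) between exons 3 and 4. In Chelator it was ICOSLG-204, a protein-coding transcript of 7 exons that starts at 44240943 and has intron 3 removed. The transcripts also differ at their ends, as ICOSLG-209 begins 3842 bases after the start of ICOSLG-204 and ends 13481 bases after it, compared with 17952 bases for ICOSLG-204. The sequences at the ends of intron 3 show 1 of these differences, and the joined sequence is shared with other ICOSLG transcripts, such as ICOSLG-203, ICOSLG-205 and ICOSLG-217 (GRCh38, - strand, 5′ to 3′). Capitals mark exon bases and lower case marks intron bases. The joined sequence holds 30 bases of exon 3 and 30 bases of exon 4 (chr21:44235533-44236896), the intron start lies at chr21:44236837-44236896 and the intron end at chr21:44235533-44235592.
Exon 3 joined to exon 4: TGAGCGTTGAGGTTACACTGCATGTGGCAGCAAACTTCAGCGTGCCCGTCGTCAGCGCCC
Exon 3 into intron 3: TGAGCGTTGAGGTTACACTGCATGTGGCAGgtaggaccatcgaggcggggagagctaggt
Intron 3 into exon 4: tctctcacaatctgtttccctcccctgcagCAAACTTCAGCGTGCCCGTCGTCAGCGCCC

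ICOSLG-204 was at 0.08, 0.16 and 0.11 TPM in DMSO and at 3.43, 2.57 and 2.69 TPM in Chelator. ICOSLG-209 went the other way, from 0.76, 1.00 and 0.70 TPM to 0.39, 0.30 and 0.22 TPM. Neither transcript's groups overlapped. ICOSLG-209 accordingly made up 71.1% ± 1.65 of the gene's TPM in DMSO and 5.64% ± 0.93 in Chelator, whereas ICOSLG-204 made up 9.84% ± 2.05 and 54.2% ± 1.81. Taken by GENCODE type, the 10 protein-coding transcripts rose from 0.29 ± 0.06 to 4.58 ± 0.81 TPM, and the 3 retained-intron transcripts went from 0.86 ± 0.14 to 0.49 ± 0.11 TPM. Of these 3, ICOSLG-209 was lower in Chelator, whereas the other 2, ICOSLG-207 and ICOSLG-210, were higher. The 4 transcripts typed as targets of nonsense-mediated decay went from 0 in all DMSO libraries to 0.29 ± 0.10 TPM. Protein-coding transcripts thus held 25.0%, 26.4% and 25.0% of the gene's TPM in DMSO and 85.0%, 85.8% and 85.7% in Chelator.

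**Figure D3:**
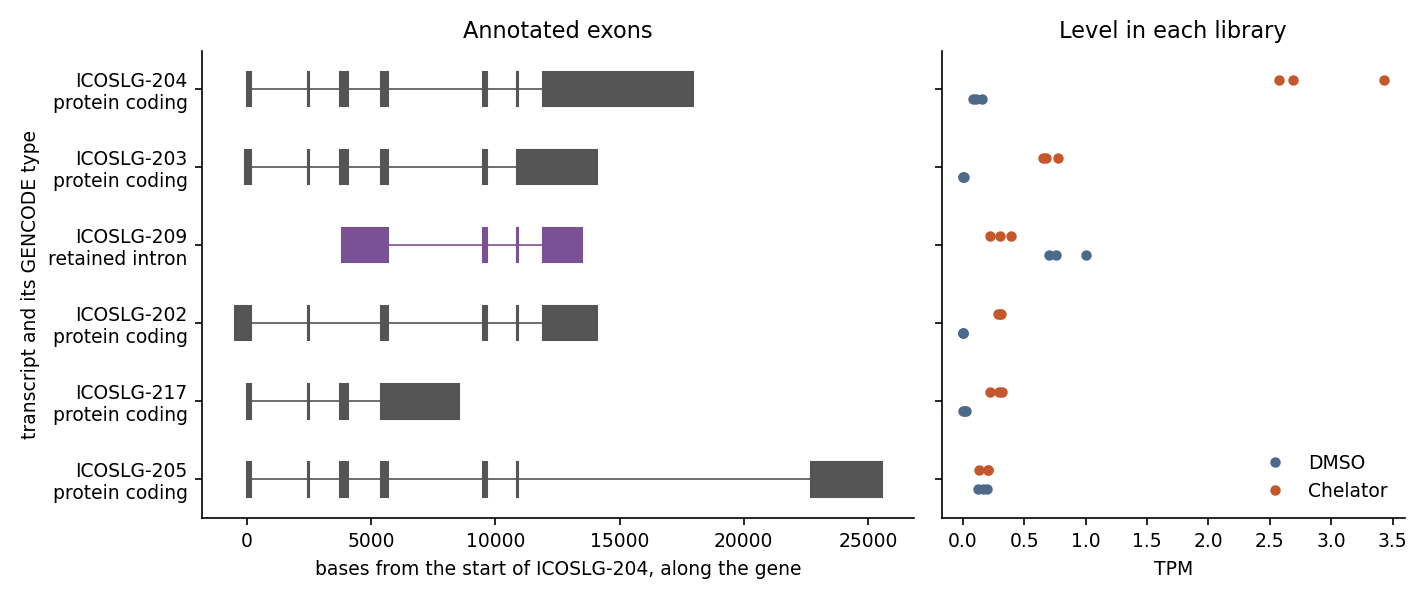
ICOSLG transcripts with at least 5% of the gene's TPM in either group: left, annotated exons (boxes) by distance in bases from the start of ICOSLG-204, right, TPM in each library (blue, DMSO, orange, Chelator, n = 3 each). ICOSLG-209, in purple, is the transcript with higher TPM in DMSO, and ICOSLG-204 reaches 2.57 to 3.43 TPM in Chelator.

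Several other ICOSLG transcripts had few or no counts in DMSO. ICOSLG-203, which keeps the intron after exon 6, had 0, 2 and 0 counts in DMSO and 292, 267 and 236 in Chelator. ICOSLG-202, which skips exon 3, rose from at most 1 count to 94, 95 and 85 counts, and ICOSLG-217, which ends in intron 4, rose from 4, 1 and 6 to 88, 102 and 60 counts. ICOSLG-205, which ends in a separate last exon, was not among them, with 50, 49 and 31 counts in DMSO and 63, 69 and 37 in Chelator. It was at 0.16 ± 0.04 TPM in DMSO and 0.18 ± 0.04 TPM in Chelator with overlapping ranges, and its share of the gene's TPM went from 13.9% ± 1.99 to 3.36% ± 0.81. ICOSLG-207, typed as retained intron, had 14, 7 and 23 counts in DMSO and 26, 34 and 34 in Chelator, and ICOSLG-210, of the same type, had 0 in DMSO and 72, 69 and 38 in Chelator.

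Transcript usage was tested with edgeR (diffSpliceDGE, Simes p per gene) in 11938 genes with at least 2 sufficiently counted transcripts, and 9.22% of them were called. Of the 10 ligand genes, 5 could be tested and ICOSLG was called, with a change of -65.5 percentage points in the share of ICOSLG-209 (adjusted p = 2.89e-05). This call held in every alternative run, with adjusted p up to 0.000205. ICOSLG shares 22.2% of its 31-base words with other genes, most of them with ENSG00000277117 (chr21:5022531-5036771, + strand), a copy of the sequence that GENCODE types as an artifact. That copy had 0.95, 3.82 and 6.21 counts in DMSO and 444, 404 and 381 in Chelator. Added to ICOSLG, it gave a log2 fold change of 2.54 (adjusted p = 1.85e-70), so that leaving it out, as was done here, gave the smaller value. The test does not include the error of dividing reads among transcripts that share exons.

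MICB was the next in size of change. MICB-204, a protein-coding transcript, went from 34.3% ± 4.22 to 46.4% ± 3.38 of the gene's TPM, and MICB-203, a short retained-intron transcript, from 10.3% ± 1.35 to 16.2% ± 1.52. The gene was not called (adjusted p = 0.886), but it was with limma's diffSplice (adjusted p = 0.00225). MICA-209 held 70.0%, 67.3% and 70.0% of MICA in DMSO and 72.8%, 67.9% and 73.4% in Chelator, while MICA-210 went from 12.9% ± 1.91 to 7.50% ± 1.06, a change of -5.44 percentage points. MICA was likewise called by limma (adjusted p = 0.0244) and not by edgeR (adjusted p = 1.00). NECTIN2-201 and NECTIN2-202 together made up most of NECTIN2 in both groups, at 48.8% and 45.9% in DMSO and 45.2% and 49.0% in Chelator (adjusted p = 1.00). In PVR, estimates of single transcripts varied within groups, and PVR-211 had 201, 0 and 0 counts in DMSO and 34, 218 and 0 in Chelator (adjusted p for the gene = 1.00). ULBP1, ULBP2, ULBP3 and NCR3LG1 had fewer than 2 such transcripts and could not be tested.

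Other genes of the same ligand systems were read from the same fit. Of 38 tested related genes that are not among the 10, 14 passed as higher and 6 as lower, 4 were called higher and 1 lower, and their median log2 fold change was 0.29. Over all genes, 19.5% and 18.3% passed as higher and lower, and 8.18% and 2.6% were called. The remaining NKG2D ligand genes, RAET1E, RAET1G and RAET1L, were low in both groups, with RAET1E at 0.07 to 0.18 TPM in all libraries (adjusted p = 0.434). Among nectins, NECTIN1 was at 0.12 to 0.36 TPM and did not pass (adjusted p = 0.454), whereas NECTIN4 was called higher from very few counts, 0 in each DMSO library and 13, 20 and 22 in Chelator (adjusted p = 0.000108).

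In the B7 family, to which ICOSLG and NCR3LG1 belong, 7 of 10 genes were tested, of which 2 passed as higher and 2 as lower. Beside ICOSLG, CD276 (B7-H3) was higher, at 2.06, 2.48 and 2.19 TPM in DMSO and 6.52, 6.68 and 5.91 TPM in Chelator (log2 fold change 1.48 ± 0.11, adjusted p = 5.41e-38). Beside NCR3LG1, CD80 (B7-1) was lower, at 1.44, 1.80 and 1.31 TPM in DMSO and 0.68, 1.07 and 0.93 TPM in Chelator (log2 fold change -0.79 ± 0.25, adjusted p = 0.00587). The B7 ligand genes CD86, PDCD1LG2 and VTCN1 were too low to be tested. Of the list of adhesion, SLAM and lectin ligands, to which CD48 belongs, 3 of 7 tested passed as higher and 2 as lower. ICAM2, a ligand of the integrin LFA-1, was called lower, from 29.1, 32.1 and 30.6 TPM to 15.7, 15.8 and 14.9 TPM (log2 fold change -1.01 ± 0.09, adjusted p = 4.17e-27). It sat at the fold threshold, and although it still passed the adjusted p, its change was smaller than 1 with edgeR (-0.97), TMM scaling (-0.97), limma (-0.94) or no length offset (-0.95), and when DMSO replicate 3 (-0.98) or Chelator replicate 3 (-0.98) was omitted. SLAMF6, a receptor that binds itself, was called higher from 23, 49 and 30 counts to 90, 68 and 64 counts (log2 fold change 1.18 ± 0.41, adjusted p = 0.0138). Apart from the test against a fold threshold, it did not pass in 4 alternatives. Among these, omission of DMSO replicate 1 gave 0.94 (adjusted p = 0.0679) and omission of Chelator replicate 1 gave 1.03 (adjusted p = 0.0984).

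MHC class I genes and those of its loading machinery were read beside the ligands, in 1 list with the regulator gene NLRC5 and the inhibitory ligand gene CLEC2D. Of 12 tested genes 6 passed as higher and 1 as lower, with a median log2 fold change of 0.36, beside 0.35 for the 9 ligands. The heavy chain gene HLA-E was at 18.2, 19.6 and 18.8 TPM in DMSO and 38.3, 37.1 and 38.6 TPM in Chelator (log2 fold change 0.98 ± 0.08, adjusted p = 9.53e-32), and HLA-C (0.84, adjusted p = 3.24e-05) and HLA-B (0.79, adjusted p = 0.00719) also passed as higher, HLA-B not after correction for GC content and length (0.54, adjusted p = 0.0765). B2M, the common light chain, was at 304, 310 and 284 TPM in DMSO and 387, 385 and 367 TPM in Chelator (log2 fold change 0.31 ± 0.08, adjusted p = 0.000319), although with centring on the mean change it was 0.21 and did not pass (adjusted p = 0.0527). The list of death receptors also holds the adaptor gene FADD and the protease gene CASP8. Of its 6 genes, 2 passed as higher and 2 as lower, FADD among the latter (log2 fold change -0.42, adjusted p = 9.85e-06). TNFRSF10B (DR5), a receptor of TRAIL, was called higher, at 6.71, 6.72 and 5.94 TPM in DMSO and 22.4, 22.9 and 23.4 TPM in Chelator (log2 fold change 1.80 ± 0.09, adjusted p = 1.18e-87). TNFRSF10A (DR4), the other TRAIL receptor listed and the more abundant in DMSO, passed as lower, from 27.7 ± 2.12 to 17.6 ± 0.76 TPM (log2 fold change -0.68 ± 0.08, adjusted p = 1.39e-15). Of the 4 genes listed for shedding of NKG2D ligands, 1 passed as higher, and the most abundant, PDIA6, was at 213 ± 15.7 TPM in DMSO and 206 ± 1.75 TPM in Chelator (adjusted p = 0.376), though with centring on the mean change it passed as lower (-0.18, adjusted p = 0.0487).

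**Figure D4:**
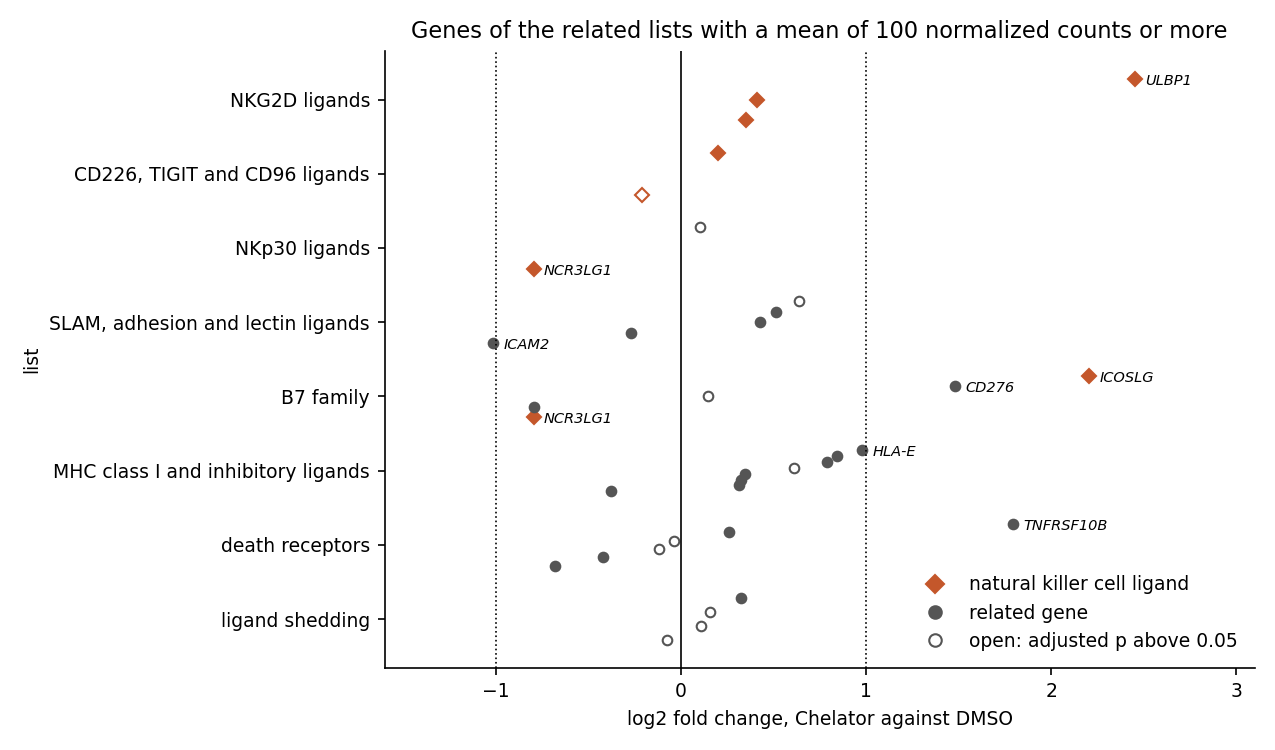
Log2 fold change, Chelator against DMSO, of genes with a mean of at least 100 normalized counts in each related list, with orange diamonds for ligands described here, grey circles for other genes and open symbols for an adjusted p above 0.05. ULBP1 at 2.45 and ICOSLG at 2.20 lie furthest to the right, and ULBP2 and ULBP3 are below the count limit and not drawn.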

How the data were processed

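mRNA of 3 Chelator and 3 DMSO libraries of K562 cells was used, with groups and replicate numbers from the labels. The authors quantified reads with Salmon (v1.10.2, per the submitters' processing notes), and the deposited files give an estimated count, a TPM value and the transcript lengths for each transcript. For TPM, the authors' software divided each estimated count by an effective length and rescaled every library to 1 sum. Salmon's options, the transcript annotation and whether counting was stranded are not given in the sources used here. Estimated counts ignore the error of dividing shared reads among transcripts.

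Identifiers were looked up in GENCODE release 44 (GRCh38). Of 252045, 251142 had the same version, 470 another version and 433 none, and the last were left out of sums. Estimated counts were summed per gene and rounded. Genes with a total above 10 were compared with DESeq2 (1.42.0, R 4.3.3) by the Wald test with median-ratio size factors and the average transcript length as offset, as the study used DESeq2 with the same thresholds. Benjamini-Hochberg adjustment covered all genes. A gene passed at an adjusted p under 0.05 and was called with an absolute log2 fold change above 1 as well. Depth, 78.6 to 101 M counts, limits precision for genes with few counts. The p-values weigh the difference between groups against the spread among these 3 and 3 libraries. DESeq2 estimates that spread with information from all genes.

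Transcript usage was tested with edgeR (4.0.16, diffSpliceDGE) on rounded transcript counts of at least 10 in at least 3 libraries, called at an adjusted p under 0.05 with a change above 5 percentage points of a transcript's share of gene TPM. Both tests were run on simulated data, where the default usage test recovered fewer of the simulated switches than the fit with a dispersion per transcript, and the recovery required of it was lowered to keep it. The edgeR dispersion was run in its default form and per transcript, and after both results had been seen the default, which called fewer genes, was kept as the reported value. Alternatives, run with limma (3.58.1) among others, are given at the end.

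All 10 ligand genes are named. From each related list the rule took up to 3 called genes with the largest change, a mean of at least 100 normalized counts and no overlap between groups, or otherwise the most abundant gene, and the transcripts named held at least 5% of gene TPM. KCNJ11, the copy of ICOSLG, genes that overlap or resemble a ligand, ICOSLG-207, ICOSLG-210, NECTIN4 and SLAMF6 fall outside this rule and were named after their values were seen. The same holds for CD80, TNFRSF10A, FADD, CASP8, HLA-B, HLA-C, HLA-E, NLRC5, CLEC2D and single marker genes. The members and lists were chosen with earlier results of these data known. Motifs were searched on both strands of 35116 RefSeq promoter windows of 300 bases. Same-numbered libraries of the 2 groups were compared by the correlation of their deviations from group means, which was -0.02, 0.07 and 0.02, so the numbers were not taken to pair samples.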

Additional observations from a re-analysis of the deposited data

How the results depend on the processing

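Results were recomputed with edgeR's quasi-likelihood test, limma on log2(TPM + 1), other scalings, filters and trends, a replicate block and each library left out. The number of ligands passing the adjusted p was 7 and fell to 2 (ULBP1 and ICOSLG) when the null was an absolute log2 fold change up to 1, where related genes went from 20 passed and 5 called to 3 and 3. With centring on the mean change, and with trends of GC content and length removed, 7 ligands passed, but not the same 7. In both settings NECTIN2 was lost and PVR passed as lower. On log2(TPM + 1), 2 related genes were called. Members called for transcript usage were 1 with edgeR and 3 with limma's diffSplice. Over all genes, usage calls numbered 1101, 2265 with a dispersion per transcript (an alternative chosen after seeing the data), 3184 with limma, 728 at a change above 10 points, and 539 to 1063 with 1 library left out. The cause was not tested.

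Centring on the mean change moved the median of all genes from 0.024 to -0.080. ULBP3 then was -0.076, and NECTIN2 was -0.050, BAG6 -0.088 and PDIA6 0.0070 with trends of GC content and length removed. Leaving out 1 library gave -0.21 to 0.24 for ULBP3, 7 to 8 ligands passing, 3 called, 18 to 21 related genes passing and 4 to 6 called. The replicate numbers share only a number, and the replicate block left 7 ligands passing, 3 called, 19 related genes passing, 4 called and 1 ligand called for usage, with ULBP3 at -0.0090. It changed no other call among the ligands, and SLAMF6, among related genes, no longer passed with it (adjusted p = 0.0502) or without the length offset (adjusted p = 0.0546). ICOSLG with its copy was added after seeing the data. Over all genes, calls higher were 2007 and lower 639 (615 and 59 against a log2 fold change of 1, 626 and 171 on log2(TPM + 1)). ULBP2, ULBP3 and CD48, with few counts, are limited by depth.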
